A study of Oryzias latipes with 8 samples.

Results

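Mitochondrial DNA encodes a small set of subunits of the respiratory chain, among them the subunits of complexes III, IV and V described here. They were examined in axial tissue of medaka (*Oryzias latipes*) larvae by RNA-Seq after exposure to triphenyl phosphate (TPhP), an organophosphate flame retardant and plasticizer. The members were chosen by identifier, as 6 of the 18064 Ensembl rows of the deposited counts. Supplemental material of the study pairs 4 of these rows with a name, *cox1* (ENSORLG00000021763), *cox2* (ENSORLG00000021766), *atp8* (ENSORLG00000021768) and *atp6* (ENSORLG00000021769). The other 2 rows, ENSORLG00000021770 and ENSORLG00000021782, were chosen as *cox3* and *cytb* from their place in a run of 37 consecutive identifiers, from ENSORLG00000021748 to ENSORLG00000021784, which also holds *nd1*, *nd2* and *nd3*. No source used here pairs those 2 identifiers with a gene name, so they are given by identifier throughout and no gene role is attached to their counts.

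Larvae of the inbred Orange-red Hd-dR strain were kept in 0.1% DMSO (n = 4 libraries) or in 1 µM TPhP dissolved in DMSO (n = 4 libraries), from 4 to 6 hpf until 14 dpf. Libraries were made from poly(A)-selected RNA of pools of 15 to 20 larvae. The study's methods also mention technical replicates, so it is not certain that every library came from its own pool. To isolate axial skeletal tissue, larvae were passed through a needle and the tissue was filtered through a mesh. Head and abdominal tissue that remained was trimmed away. The tissue is still a mixture of cell types. The deposited values are counts of reads per gene, unnormalized and limited to reads that mapped uniquely. Library totals ran from 46561277 to 51501685 counts. CPM are counts scaled to a common library size after TMM scaling, edgeR's correction for libraries of different make-up. TPhP replicate 1 stood apart from the other TPhP libraries in the 4 named members, and results are therefore given with and without it. That library was singled out by its values in these members, so what is found without it is a description and no independent support.

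The labelled tissue was checked with 7 skeletal genes of the study's primer list, and all 7 were counted in every library. The sources used here give no identifiers of markers of other cell types, so the check cannot show how much other tissue was present. The study itself reports some of these genes as changed by TPhP. Their summed level was 699 to 1853 CPM with DMSO and 1194 to 3348 CPM with TPhP, with overlapping ranges. EdgeR called 0 of the 7, while all 7 had a higher mean in TPhP libraries and 2 had every TPhP library above every DMSO library, as did 3.57% of all genes tested. *Col2a1* encodes a collagen of cartilage and of the notochord. It had 30.6, 37.8, 63.7 and 73.0 CPM in DMSO replicates 1 to 4, and 81.5, 271, 162 and 308 CPM in TPhP replicates 1 to 4 (log2 fold change 2.00, edgeR adjusted p = 0.164). TPhP replicate 1 was the TPhP library nearest to the DMSO libraries here too. *Runx2*, a transcription factor of bone-forming cells, had means of 5.04 ± 1.36 CPM (SD, n = 4) with DMSO and 7.53 ± 1.17 CPM (SD, n = 4) with TPhP (edgeR adjusted p = 0.240). The part of these tissue genes in the members' values below was not tested.

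In vertebrates, mitochondrial DNA is transcribed into long RNAs that are cut into separate messages and given poly(A) tails inside the mitochondrion. *Cox1* and *cox2* encode core subunits of cytochrome c oxidase (complex IV), the enzyme that passes electrons to oxygen. *Atp6* and *atp8* encode subunits of the membrane part of ATP synthase (complex V), which makes ATP from the proton gradient, and their coding regions overlap on a shared message. Cytochrome b, of complex III, hands electrons on from ubiquinol towards cytochrome c.

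On the mitochondrial sequence of the assembly ASM223467v1, RefSeq places *cox1* at bases 5455 to 7011 and *cox2* at 7167 to 7857, followed by *atp8* (7932 to 8099) and *atp6* (8090 to 8772). The next gene, *cox3*, starts at 8773 and ends at 9556, with 0 bases between it and *atp6*. *Cytb* lies from 14359 to 15499, at the far end of the 13 protein-coding genes of that table. All are protein-coding exons without introns in vertebrates. Where genes abut or overlap, a read across both could be counted for neither, and *atp8* and *atp6* are uncertain to that extent.

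The 6 rows were split by their counts into 4 that were lower by several fold in TPhP libraries and 2 that were not. The TPhP means of *cox1*, *cox2*, *atp8* and *atp6* lay at 25.2%, 11.2%, 13.5% and 8.98% of their DMSO means. TPhP replicate 1 alone lay at 54.4%, 44.0%, 54.1% and 34.8%. TPhP replicates 2 to 4 lay at no more than 17.0%, 0.225%, 0% and 0.426%, so these TPhP means describe no single library. The TPhP means of ENSORLG00000021770 and ENSORLG00000021782 lay at 68.3% and 77.4% of their DMSO means. With all 8 libraries, edgeR's quasi-likelihood test called 0 of the 6 members, and 0% of the 15893 genes tested were called (Benjamini-Hochberg adjusted p under 0.05 over all genes and a fold change above 1.5, the study's criteria). At an unadjusted p under 0.05 there were 4 of 6 members (*cox1*, *atp8*, *atp6* and ENSORLG00000021770), where 2582 genes, 16.2% of those tested, reached it. Of these members, *atp8* passed the filter on low counts through the DMSO libraries, where it was high, so its p is no support. DESeq2 called 1 member, *cox1*, which was lower. It called 3.82% of its genes tested, and 1.03% as lower. The study applied the same thresholds to DESeq2 and reported more genes than were called here with all 8 libraries. Its supplement lists larger decreases of *cox1*, *cox2*, *atp8* and *atp6* than those found here with all 8 libraries and treatment as the only factor. With a block for the replicate number, edgeR's log2 fold changes were −2.20, −7.84, −4.83 and −7.10 in that order, and 0 members were called. That of *atp8* is then a larger decrease than the supplement's.

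*Cox1* had 9272, 12641, 5998 and 10848 CPM in DMSO replicates 1 to 4, and 5272, 1396, 1467 and 1648 CPM in TPhP replicates 1 to 4. Every TPhP library was below every DMSO library, but the gap between TPhP replicate 1 and DMSO replicate 3 was narrow beside the spread within each group. The means were 9690 ± 2820 CPM (SD, n = 4) with DMSO and 2446 ± 1887 CPM (SD, n = 4) in TPhP libraries. In edgeR the log2 fold change came to −1.99, with a standard error of 0.46 (adjusted p = 0.164). Without TPhP replicate 1 it was −2.69 (edgeR adjusted p = 0.00126) and the gene was called.

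*Cox2* had 2833, 4059, 1721 and 3290 CPM in DMSO replicates 1 to 4, and 1309, 6.71, 5.56 and 6.20 CPM in TPhP replicates 1 to 4. TPhP replicate 1 thus kept 44.0% of the DMSO mean, and TPhP replicates 2 to 4 kept 0.225%, 0.187% and 0.208% of it. As counts, the last 3 libraries held 379, 303 and 331 reads of *cox2*, against at least 77273 in any DMSO library. The reads themselves were not examined, and whether reads of these genes were aligned and counted alike in all 8 libraries, those that map to several places included, was not tested. With all 8 libraries edgeR put its log2 fold change at −3.16, with a standard error of 1.67 (adjusted p = 0.378). Without TPhP replicate 1 it was −8.92 (edgeR adjusted p = 2.76e-05).

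*Atp6* had 638, 879, 426 and 743 CPM in DMSO replicates 1 to 4, and 234, 2.81, 1.69 and 2.86 CPM in TPhP replicates 1 to 4. The groups did not overlap, and again TPhP replicate 1 lay between the DMSO libraries and the other TPhP libraries. The means were 672 ± 191 CPM (SD, n = 4) and 60.3 ± 116 CPM (SD, n = 4). In edgeR its log2 fold change, −3.48 with a standard error of 1.49 (adjusted p = 0.289), was the lowest of all 15893 genes tested. Without TPhP replicate 1 it was −8.10 (edgeR adjusted p = 3.27e-05).

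*Atp8*, the shortest of these genes at 168 bases, was counted far less often. It had 97, 91, 57 and 105 counts in DMSO replicates 1 to 4, and 54, 0, 0 and 0 counts in TPhP replicates 1 to 4. In the 3 libraries at 0, the upper 95% limit for a count of 0, 3 counts, corresponds to 0.0531 to 0.0562 CPM, against a DMSO mean of 1.94 CPM. The DMSO mean, taken without its spread, was at least 34.5-fold above that limit. The limit holds per library and for counting error only. Over all 8 libraries edgeR gave *atp8* a log2 fold change of −2.90, with a standard error of 1.23 (adjusted p = 0.286). The DMSO libraries, where it was high, were enough for it to pass the filter on low counts, so its p-value is no support.

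ENSORLG00000021770 had 16138, 10695, 11329 and 10681 CPM in DMSO replicates 1 to 4, and 8970, 7553, 7806 and 9019 CPM in TPhP replicates 1 to 4. TPhP replicate 1 lay among the other TPhP libraries here, and the high value was DMSO replicate 1. The means were 12211 ± 2636 CPM (SD, n = 4) and 8337 ± 767 CPM (SD, n = 4), and the groups did not overlap. The log2 fold change was −0.55 (95% interval −0.91 to −0.19, edgeR adjusted p = 0.183). With DESeq2 it was −0.56 (adjusted p = 0.0461), under the fold threshold. The size of this difference depended on the scaling. With library sizes alone it was −0.26, and its share of all counts was 0.939% to 1.37% with DMSO and 0.902% to 0.936% with TPhP.

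ENSORLG00000021782 had 16028, 8869, 10234 and 11151 CPM in DMSO replicates 1 to 4, and 9457, 8465, 8637 and 9274 CPM in TPhP replicates 1 to 4. The groups overlapped, since DMSO replicate 2 lay below TPhP replicates 1 and 4. The means were 11570 ± 3116 CPM (SD, n = 4) and 8958 ± 481 CPM (SD, n = 4). The log2 fold change was −0.37 (95% interval −0.77 to 0.03, edgeR adjusted p = 0.346), −0.40 without TPhP replicate 1, and −0.08 with library sizes alone. The log2 fold changes of *cox2* and *atp6* lie outside this interval, while a small decrease lies within it. The 95% intervals of *cox2* (−6.90 to 0.57) and *atp6* (−6.82 to −0.13) were wide and overlapped that of ENSORLG00000021782.

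**Figure D1:**
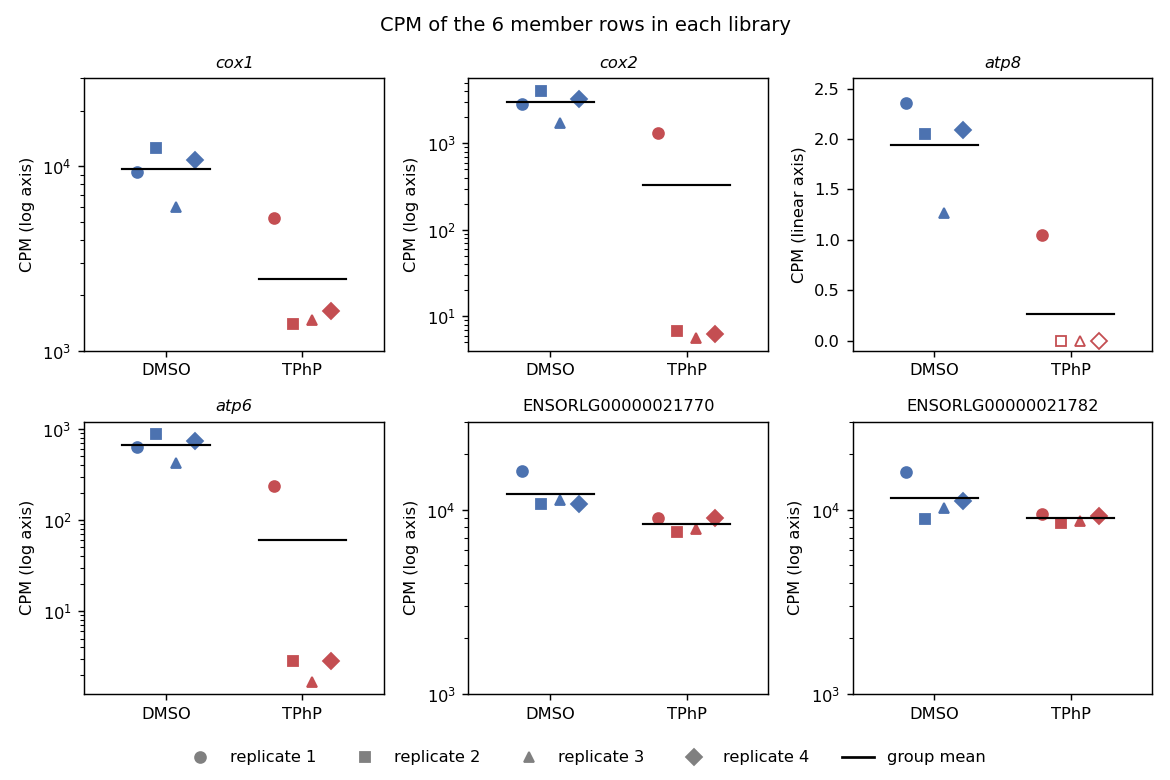
CPM of the 6 member rows in each library, by treatment (4 DMSO and 4 TPhP libraries), with each point a library, its shape the replicate number and the bar the group mean; axes are logarithmic except for *atp8*, whose open points are libraries at 0 counts. TPhP replicate 1 (circle) sits between the DMSO libraries and the other TPhP libraries in the 4 named genes, from 5272 CPM of *cox1* to 1.05 CPM of *atp8*, but not in the 2 rows given by identifier.

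Of the 6 members, 5 had every TPhP library below every DMSO library, as did 3.57% of all genes tested. ENSORLG00000021782 was the exception. *Atp8*, among the 5, passed the filter on low counts through the DMSO libraries, so its lack of overlap is no support. Leaving out TPhP replicate 1, edgeR called 4 of 6 members, all of them lower (*cox1*, *cox2*, *atp8* and *atp6*), and 4.81% of genes tested were called lower. *Atp8* was then at 0 in every remaining TPhP library and passed the filter only through the DMSO libraries, so its call is no support. DESeq2 without that library called the same 4 and ENSORLG00000021770, where 6.45% were called lower. The median log2 fold change of the members was −2.44, and that of all genes tested was 0.02. Library sizes alone moved the median of all genes to 0.30, and every member stayed lower with TPhP under each scaling tried, relative to 0 and to that median. In bulk tissue, fewer cells of a type, fewer mitochondria and less RNA per cell cannot be told apart. The members did not change by a common factor, and neither these causes nor the counting of reads was tested.

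The 4 named members also differed among themselves in counts per length. *Cox1* had the most, at 6224 ± 1811 RPKM (SD, n = 4) in DMSO libraries, where RPKM are CPM per 1000 bases of the RefSeq gene. *Cox2* followed at 4306 ± 1415 RPKM (SD, n = 4), *atp6* at 983 ± 280 RPKM (SD, n = 4) and *atp8* at 11.5 ± 2.78 RPKM (SD, n = 4). The ranges of *cox1* (3853 to 8119 RPKM) and *cox2* (2491 to 5874 RPKM) overlapped over the DMSO libraries, and those of the other neighbours in this order did not. In TPhP libraries the order of the means was the same, at 1571 ± 1212, 480 ± 943, 88.3 ± 169 and 1.56 ± 3.12 RPKM (SD, n = 4). For *cox2*, *atp6* and *atp8* the TPhP mean came almost wholly from TPhP replicate 1 and describes no single library. *Atp8* and *atp6* share a message, *atp8* is short, and reads across both could be counted for neither. Their RPKM are therefore counts per length and no measure of how abundant each message was.

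Among the DMSO libraries the members did not all vary together. *Cox1*, *cox2* and *atp6* were highest in DMSO replicate 2 and lowest in DMSO replicate 3, whereas ENSORLG00000021770 and ENSORLG00000021782 were highest in DMSO replicate 1. For *atp8*, DMSO replicate 1 was highest in CPM (2.35) and replicate 4 in counts (105), and replicate 3 was lowest in both. The coefficient of variation over DMSO libraries lay between 21.6% (ENSORLG00000021770) and 32.8% (*cox2*). Over TPhP libraries it was 9.20% and 5.37% for ENSORLG00000021770 and ENSORLG00000021782 and at least 77.2% for the named members.

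Because a ratio of counts within a library does not depend on its scaling, each member other than *atp8* was set against *cox1*. For every 100 counts of *cox1*, DMSO replicates 1 to 4 had 30.6, 32.1, 28.7 and 30.3 counts of *cox2*, and TPhP replicates 1 to 4 had 24.8, 0.480, 0.379 and 0.376. The DMSO libraries were nearly alike in this ratio although their *cox1* ran from 5998 to 12641 CPM, and all TPhP libraries were below them. The difference of the mean log2 ratio was −4.73 (exact permutation test, two-sided, p = 0.0286, which is as low as the 70 splits can go, and 0.0381 adjusted over the 4 ratios compared). The study's list of lowered genes, drawn from these libraries, already held *cox1*, *cox2* and *atp6*, with *cox1* lowered less. The p-values of all 4 ratios to *cox1* are therefore a description and no independent support.

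*Atp6* gave 6.88, 6.95, 7.10 and 6.85 counts per 100 of *cox1* in DMSO replicates 1 to 4, and 4.44, 0.202, 0.115 and 0.174 in TPhP replicates 1 to 4. The 4 DMSO libraries lay within a narrow band and TPhP replicate 1 already lay well below it. The log2 ratio differed by −4.24 (exact permutation test, p = 0.0286, adjusted p = 0.0381). *Cox2* and *atp6* were thus lower relative to *cox1*, in 4 of 4 TPhP libraries. Per 100 counts of *cox2*, *atp6* had 21.7 to 24.8 counts in the DMSO libraries, and 17.9, 42.0, 30.4 and 46.2 in TPhP replicates 1 to 4. In TPhP replicates 2 to 4 these values rest on 159, 92 and 153 counts of *atp6*.

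The 2 rows given by identifier moved the other way against *cox1*. ENSORLG00000021770 had 1.74, 0.846, 1.89 and 0.985 counts per count of *cox1* in DMSO replicates 1 to 4, and 1.70, 5.41, 5.32 and 5.47 in TPhP replicates 1 to 4. TPhP replicate 1 lay inside the DMSO range and the other 3 above it. The difference of the log2 ratio, 1.65, did not pass (exact permutation test, p = 0.0857, adjusted p = 0.0857). It was 2.07 without TPhP replicate 1, with no test since that library was the one inside the DMSO range. For ENSORLG00000021782 the ratios were 1.73, 0.702, 1.71 and 1.03 with DMSO and 1.79, 6.07, 5.89 and 5.63 with TPhP. All 4 TPhP libraries were above the DMSO libraries, TPhP replicate 1 by little, and the log2 ratio differed by 1.85 (exact permutation test, p = 0.0286, adjusted p = 0.0381). Between themselves the 2 rows kept a near constant proportion. For every 100 counts of ENSORLG00000021770, ENSORLG00000021782 had 82.9 to 104 counts with DMSO and 103 to 112 counts with TPhP, with overlapping ranges.

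**Figure D2:**
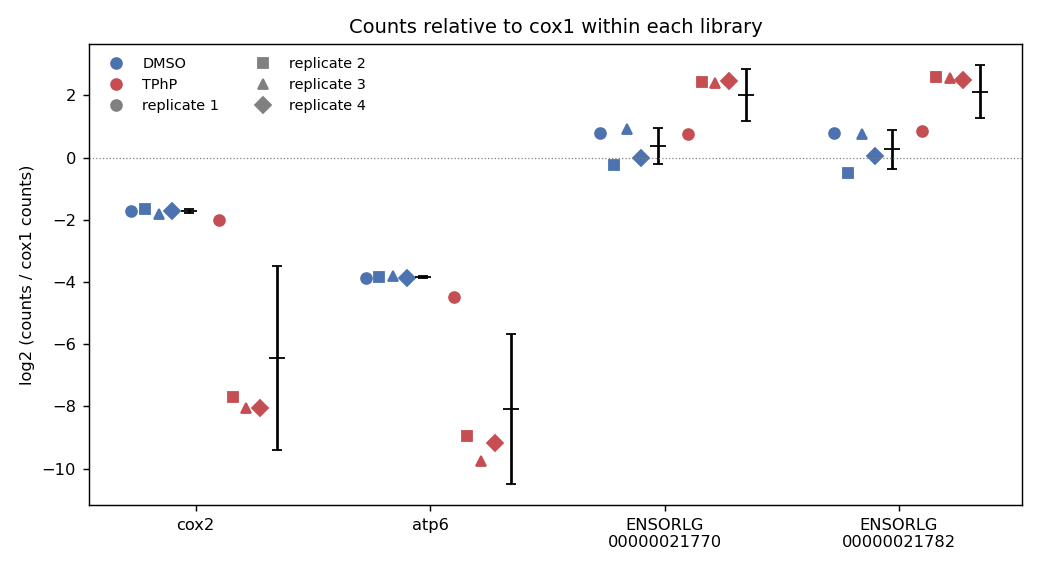
Log2 ratio of the counts of 4 members to those of *cox1* within each library, by treatment, with each point a library, its shape the replicate number, and the mean ± SD (n = 4) beside each group. *Cox2* and *atp6* lie below the DMSO libraries in all 4 TPhP libraries (differences −4.73 and −4.24), and the 2 rows given by identifier lie above them in 3 and in 4 TPhP libraries (differences 1.65 and 1.85).

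As a share of all counts, the 4 named members held 0.739% to 1.54% of the DMSO libraries. They held 0.693% of TPhP replicate 1 and 0.170% to 0.172% of TPhP replicates 2 to 4. The 2 rows given by identifier together held 1.72% to 2.72% of the DMSO libraries and 1.87% to 1.94% of the TPhP libraries, with overlapping ranges. Of the counts on the 6 members, these 2 rows had 52.7% to 72.6% in the DMSO libraries, 73.0% in TPhP replicate 1 and 91.7% to 91.9% in the others.

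The study names *nd1*, *nd2* and *nd3*, subunits of complex I, as further mitochondrial genes that were lowered, in the supplemental list that also holds the 4 named members. That list was chosen from these libraries, so the lower counts of its genes here are no independent evidence. With TPhP, *nd1* lay at 11.5% of its DMSO mean, *nd2* at 12.4% and *nd3* at 11.2%, beside 11.2% for *cox2*. These means rest almost wholly on TPhP replicate 1, at 45.2%, 49.2%, 43.7% and 44.0% of the DMSO mean in that order. TPhP replicates 2 to 4 were at 0.791% or less of it in each of these genes. The ranks that follow use all 8 libraries and carry the same limit. Ordered by the log2 fold change over all genes tested, *atp6* came 1st, *cox2* 2nd, *nd3* 3rd, *nd1* 4th, *nd2* 5th and *atp8* 6th from the lowest, with *cox1* at rank 30. ENSORLG00000021770 was at rank 861 and ENSORLG00000021782 at rank 2013.

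Against these genes the rows given by identifier stood far outside the DMSO range in TPhP replicates 2 to 4. For each count of *cox2*, ENSORLG00000021770 had 2.64 to 6.58 counts in the DMSO libraries, 6.85 in TPhP replicate 1, and 1126, 1403 and 1456 in TPhP replicates 2 to 4. ENSORLG00000021782 had 2.19 to 5.95 counts per count of *cox2* with DMSO, 7.23 in TPhP replicate 1, and 1262, 1552 and 1497 in the others. Per count of *nd1* the same 2 rows had 25.8 to 60.8 and 21.4 to 54.9 counts in DMSO libraries, and at least 10253 and 10542 in TPhP replicates 2 to 4. In TPhP replicate 1 these ratios were 61.4 and 64.7, just above the DMSO libraries.

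Over the whole run of 37 identifiers, 17 rows were tested, 6 of them members. Of the 11 tested rows that are no members, 5 had every TPhP library below every DMSO library, as did 3.57% of all genes tested. Up to the identifier of *atp6* lay 6 of the 11 rows, *nd1* and *nd2* among them, with log2 fold changes from −3.13 to −0.47. The −0.47 was that of 1 row with 200 counts over all libraries. The others, 1 of them with 97 counts, lay from −3.13 to −2.59. After the identifier of *atp6* lay 5 of the 11 rows, of which *nd3* had −3.16. The other 4, which no source used here names, had −0.48 to −0.25, beside −0.55 and −0.37 for the 2 members given by identifier. Among those 4 rows, 0 had groups that did not overlap, and edgeR called 0 of the 11 rows and 0% of all genes tested. The named genes of the run come in the order of their RefSeq positions, from *nd1* (base 2832) to *nd3* (base 9626). For the unnamed rows no position was available, and the order of identifiers is itself not a position on the genome.

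**Figure D3:**
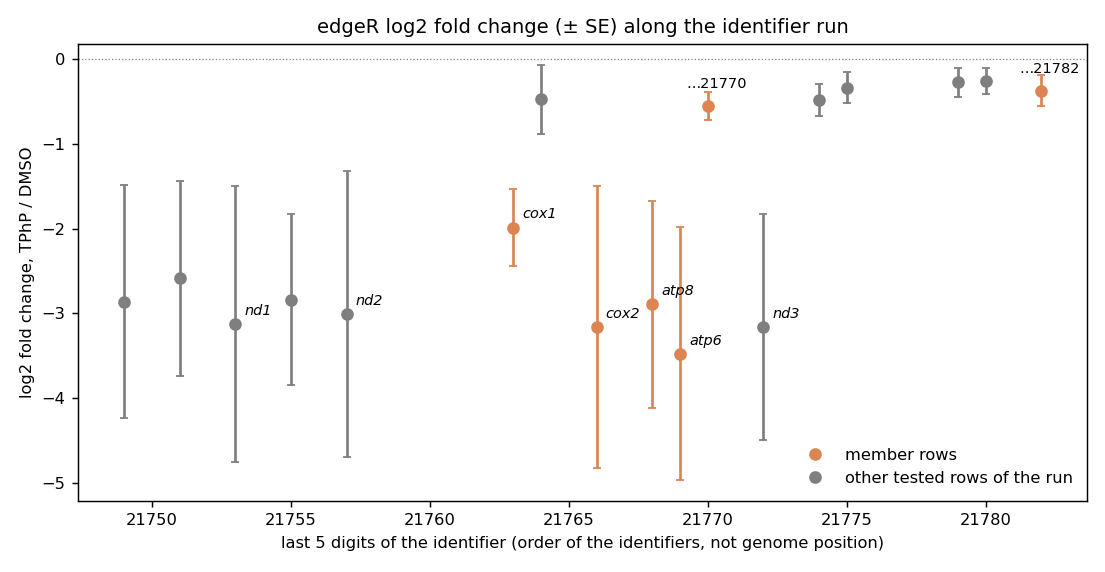
Log2 fold change of TPhP against DMSO (edgeR, 8 libraries; bars are ± standard error) of the 17 tested rows of the run, ordered by the last 5 digits of the identifier, with members in orange and the other rows in grey. *Cox2*, *atp8* and *atp6* lie from −3.48 to −2.90 beside *nd1*, *nd2* and *nd3*, *cox1* lies at −1.99, and the members given by identifier lie at −0.55 and −0.37.

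By the Pearson correlation of log2 CPM over the 8 libraries, the 5 rows most like *cox2* outside the members were led by *nd2* (1.00) and *nd1* (0.999). Of the 5, 4 belonged to the identifier run. The 5 rows most like *cox1* (0.982 to 0.989) held 1 row of the run, and none of them is named in the sources used here. These values describe likeness only, since they follow the place of TPhP replicates 2 to 4 against the other 5 libraries, and no test was made.

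**Figure D4:**
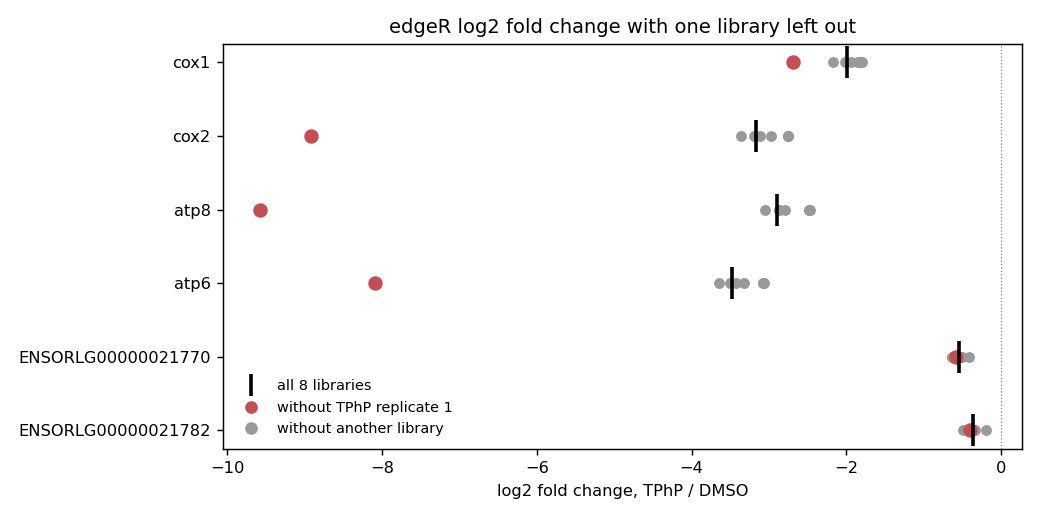
Log2 fold change of each member (edgeR, TPhP against DMSO) with all 8 libraries (black line) and with each library left out in turn (points), TPhP replicate 1 in red. Without TPhP replicate 1, *cox1* moves from −1.99 to −2.69, *cox2* from −3.16 to −8.92 and *atp6* from −3.48 to −8.10, while the 2 rows given by identifier stay at −0.59 and −0.40; the point of *atp8* at −9.58 is set against libraries at 0 counts and depends on the fit.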

How the data were processed

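RNA was sequenced from 8 libraries, 4 DMSO and 4 TPhP. Per the study's methods, the authors checked read quality with FastQC, trimmed the reads, aligned them with STAR to the assembly ASM223467v1 and counted uniquely mapped reads on genes with htseq-count, and these counts were deposited without normalization. Reads aligning to several places were not counted, and the strand option and the annotation release used for counting are not given in the sources used here, although the supplement names an Ensembl release for its gene identifiers. The submitters' processing notes name R 4.5.1 and DESeq2 1.40.2. The libraries are pools that the labels call biological replicates, although the protocol also mentions technical replicates, so p-values measure the spread between these libraries. The title of TPhP replicate 4 ends in the number of TPhP replicate 3 and not its own, and the library name was used. Whether these libraries came from separate pools was not tested.

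All else was computed here from the counts with R 4.3.3, edgeR 4.0.16, DESeq2 1.42.0 and Python 3.11.15. Genes passing edgeR's default filter (15893 of 18064) were scaled by TMM, and the quasi-likelihood test was applied with treatment as the only factor, p-values adjusted by Benjamini-Hochberg over all genes. Standard errors were derived from the fold change and its F statistic. DESeq2 was run on all genes with a count. The edgeR test was tried on simulated counts with the same spread set for all genes, and the permutation test on made-up values with a known answer. Neither check covers the spread seen in the members with TPhP. Ratios to *cox1* used a pseudocount of 0.5 counts and exact permutation tests, and log2 CPM a prior count of 2. Depth was even (46561277 to 51501685 counts), and intervals from counts cover counting error only.

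Gene names came from the primer list and the list of mitochondrial genes in the supplement, and positions from RefSeq by symbol, since 0 rows of that table carry an Ensembl identifier. The nuclear subunits and assembly factors of these complexes were not analysed here for that reason, and no sequences were used. The named genes were the 6 members, *nd1*, *nd2* and *nd3* as comparison, and skeletal genes of the primer list as a check of the tissue. The supplement's list also holds *nr1d4a* and *nr1d4b*, which it describes as nuclear receptors, and these were not used here. The members and lists were chosen with earlier results of these data known. Alternatives tried were DESeq2, RLE factors, library sizes only, the identifier run left out of the normalization, other filters on low counts, no fold threshold, a block for the replicate number, omission of each library and another pseudocount. DESeq2 without TPhP replicate 1 was added after seeing the data.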

Additional observations from a re-analysis of the deposited data

Results flagged for a closer look

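In 11 of 26 groups of 4 libraries examined, 1 library was set apart from the other 3, where chance gives about 1.3. These groups are not independent, since they share libraries and a denominator. The gap to the nearest library, as a share of the group's range, was above Dixon's 95% critical value for 4 samples in each. In 10 of them the library was TPhP replicate 1 among the TPhP libraries. In log2 CPM the value was 0.875 for *cox1*, 0.966 for *cox2*, 1.00 for *atp8*, 0.894 for *atp6*, 0.914 for *nd1* and 0.996 for *nd2*. That of *atp8* follows from the 3 other TPhP libraries being at 0 counts. In the log2 ratio to *cox1* it was 0.941 for *cox2*, 0.847 for *atp6*, 0.976 for ENSORLG00000021770 and 0.938 for ENSORLG00000021782. The remaining group was ENSORLG00000021770 in the DMSO libraries, where DMSO replicate 1 stood high (0.857).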

How the results depend on the processing

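With all 8 libraries edgeR called 0 genes and 0 members. DESeq2 gave 618 genes (3.82% of its genes tested) and 1 member. Without TPhP replicate 1, chosen after seeing the data, DESeq2 gave 2304 genes (14% of its genes tested) and 5 members. Across the fits that left out 1 library, edgeR gave 0 to 1712 genes and 0 to 4 members. The high ends came without TPhP replicate 1 (10.7% of genes tested), and 4 genes were called without DMSO replicate 4. Both calls of members without TPhP replicate 1 include *atp8*, at 0 in every TPhP library then left, which is no support. The other settings gave 0. A replicate block was among them, and it moved edgeR's log2 fold change to −7.84 for *cox2*, −7.10 for *atp6* and −4.83 for *atp8* (adjusted p = 0.247, 0.247 and 0.270). The filter of at least 10 counts in every library left *atp8* out.

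Leaving out 1 library gave differences of the log2 ratio to *cox1* from −6.21 to −4.20 for *cox2*, −5.44 to −3.69 for *atp6*, 1.45 to 2.07 for ENSORLG00000021770 and 1.59 to 2.28 for ENSORLG00000021782. Without any one DMSO library the exact permutation p of *cox2*, *atp6* and ENSORLG00000021782 was 0.0571 (0.0762 adjusted). In these fits the split that joined TPhP replicate 1 to the DMSO libraries gave a difference at least as large as that of the labels. With a replicate block the differences stayed at −4.73, −4.24 and 1.85 by construction, with p = 0.125 by an exact sign-flip test, the lowest possible with 4 pairs (0.167 adjusted). The labels do not say whether same-numbered libraries share more than a number. The correlations of their deviations were 0.071, 0.21, 0.025 and −0.25, and 2 of 8 libraries correlated best with their own number. These values cannot decide whether such libraries shared a source or a batch.

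Every member's log2 fold change stayed negative in all alternatives. The largest moves came without TPhP replicate 1, and for ENSORLG00000021770 and ENSORLG00000021782 with library sizes alone (−0.26 and −0.08). Among the members depth limits *atp8* most, with 0 to 105 counts a library. In TPhP replicates 2 to 4 counts were also small for *atp6* (92 to 159) and *cox2* (303 to 379). There *nd1*, *nd2* and *nd3* had no more than 47, 17 and 13 counts.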
